A study of Mus musculus with 7 samples.

Results

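Cytochrome P450 genes were followed through the development of the mouse colon. All genes were taken whose symbol in the array annotation is Cyp followed by a family number, a subfamily letter and a gene number, which gave 70 genes of 15 families on 93 probe sets, of 18194 genes measured. The genes were taken by name and not by any measured value, but earlier results of these data were known when the P450 genes were chosen. Colon was taken from untreated inbred C57BL/6 mice on each embryonic day between E13.5 and E18.5 and from adults 8 weeks after birth, with 1 array for each of the 7 stages. RNA was measured on Affymetrix Mouse Genome 430 2.0 arrays, and the number, sex or pooling of the animals behind an array was not given in the sources used here. Values are log2 intensities normalized by RMA, so that a difference of 1 is a 2-fold change, and a gene with several probe sets is given by their median.

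Cytochrome P450 enzymes are heme proteins that insert an oxygen atom into their substrates with electrons passed on from a partner protein. Families 1, 2 and 3 largely oxidize drugs, plant compounds and other foreign chemicals, and also arachidonic acid and steroids. Family 4 hydroxylates fatty acids and eicosanoids. The remaining families act on endogenous substrates such as cholesterol, bile acids, steroid hormones, vitamin D and retinoic acid. The liver holds most of these enzymes, and the intestinal epithelium, which meets foreign compounds from food and bacteria, holds its own set.

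Most P450 genes stayed low at every stage, and those that changed were mainly higher in the adult. The highest of the 7 values lay below 5.81, the lowest of the array medians, for 38 of the 70 genes (54.3%), against 35.1% of all genes. The values of 23 P450 genes (32.9%) spanned at least 1 on the log2 scale, against 23.5% of all genes, and no gene that was low on all arrays was among them. The adult value was the highest of the 7 for 36 genes (51.4%), against 33.4% of all genes. These shares are descriptions, since levels of different probe sets depend on the probes as well as on the transcript.

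Each gene was fitted in limma with a line through the 6 embryonic arrays, whose slope is the log2 change per day, and a term for how far the adult array lies from the level that the line gives at E18.5. Since stages were not replicated, error was taken from the scatter of the embryonic values about their line (4 residual degrees of freedom). The adult array was given the same scatter. eBayes then drew the error of each gene toward a value shared by all genes (2.83 prior degrees of freedom). Standard errors and p-values therefore do not rest on the scatter of the gene alone. Along the embryonic line 10 P450 genes rose (14.3%, background 9.12% of all genes) and 1 fell (1.43%, background 10.4%), at a Benjamini-Hochberg adjusted p under 0.05. In the adult 15 were higher (21.4%, background 4.23%) and 1 was lower (1.43%, background 3.26%), at an adjusted p under 0.05 and a difference of at least 1. Of the genes called, 5 were called both along the line and in the adult, which gave 22 genes in all. By the definition of development-related genes that the study uses, a Spearman correlation with stage order beyond 0.9 in either direction and a place among the 1000 largest median absolute deviations of such genes, 3 P450 genes rose (4.29%, background 3.08%) and 0 fell (background 2.42%). Thus the share of P450 genes higher in the adult stood well above that of all genes, the share that fell before birth lay below it, and the share of rising development-related genes was close to it. Genes low on all arrays were more frequent among the P450 genes (54.3% against 35.1%), and their part in the share that fell was not tested.

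**Figure D1:**
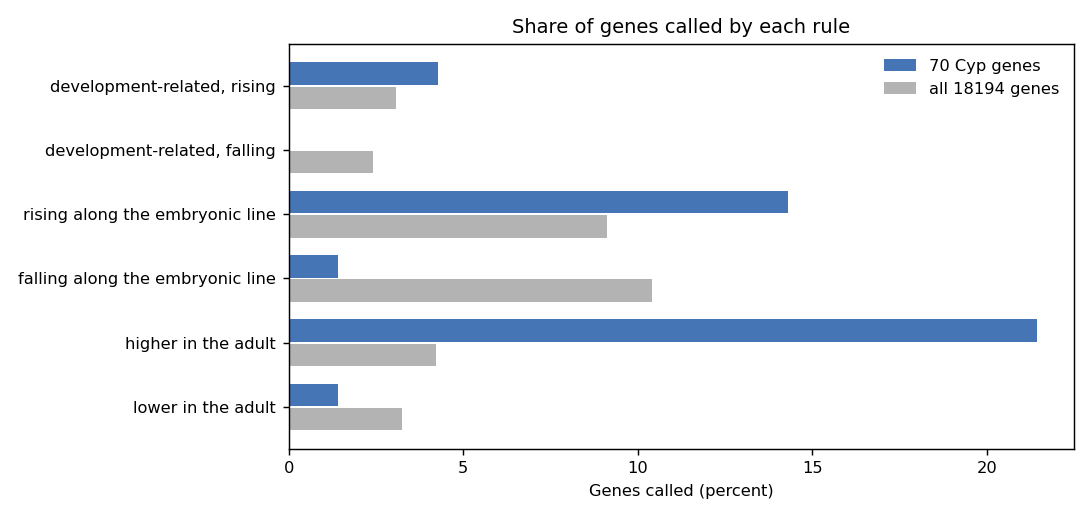
Percent of genes called by each rule, on the horizontal axis, for the 70 P450 genes (blue) and for all 18194 genes (grey). The bar for genes higher in the adult reaches 21.4% for the P450 genes and 4.23% for all genes, and the bar for genes falling along the embryonic line 1.43% and 10.4%.

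The tissue label was checked against markers. All 11 measured markers of the colon epithelium rose along the embryonic line (all genes 9.12%). Their mean log2 level was 7.48 at E13.5, then 9.71 at E18.5 and 11.43 in adult colon. Their adult differences ran from 0.18 for Cdh1 to 6.66 for Car1, with a median of 0.64. Markers of other cells and tissues moved as well. Of 7 mesenchyme and smooth muscle markers 4 rose (57.1%, all genes 9.12%) and 1 fell (14.3%, all genes 10.4%). Their mean level was 8.18 at E13.5, then 8.94 at E18.5 and 8.72 in adult colon. Their adult differences ran from −2.07 for Col1a2 and −1.63 for Col1a1 to 0.80 for Des, with a median of 0.05. Of 6 macrophage and mast cell markers 0 rose (all genes 9.12%) and 0 fell (all genes 10.4%). Their mean level was 5.20 at E13.5, then 5.57 at E18.5 and 6.01 in adult colon. Their adult differences ran from −0.20 for Cpa3 to 1.54 for Csf1r, with a median of 0.33. Of 5 small intestinal markers 4 rose before birth (80%, all genes 9.12%). Their mean level was 5.90 at E15.5, 8.46 at E17.5, then 9.08 at E18.5 and 8.56 in adult colon. Their adult differences ran from −1.70 for Apoa4 to 1.99 for Fabp2. Of 9 hepatocyte markers 3 rose before birth (33.3%, all genes 9.12%), namely Apoa1, Ttr and Serpina1b. Alb, the defining transcript of hepatocytes, lay between 6.24 and 6.83 on all arrays. Afp, which fetal hepatocytes make, had 7.92, 8.14, 7.43, 6.31, 8.02 and 9.51 in the embryo and 5.09 in adult colon. The slope of Afp, 0.18 per day, was not called. Adult differences of the 9 hepatocyte markers ran from −5.30 for Serpina1b to 0.49 for Ahsg, with −3.98 for Apoa1 and a median of −0.66. Serpina1b, at 10.15 on E18.5 and 4.53 in the adult, was the 1 hepatocyte marker called lower in the adult, by a difference of −5.30 (adjusted p = 0.00058). Among 5 measured adipocyte markers the adult differences were 3.07 for Adipoq, 2.31 for Retn, 0.66 for Cidec, 0.17 for Lep and −0.004 for Fabp4. Among 6 measured acinar markers they were 1.55 for Cpa1, 1.42 for Prss2, 1.38 for Ctrb1, 0.84 for Cpb1, 0.58 for Cela3b and 0.38 for Cela2a. The median adult difference was 0.66 for the adipocyte and 1.11 for the acinar markers, against 0.03 for all genes and 0.16 for all P450 genes. The Gapdh control probe sets had a 5′ minus 3′ value of −2.41 in the adult and of −1.59 to −1.29 in the embryonic samples, so that RNA quality and stage cannot be told apart in the adult difference. In RNA of a mixed tissue, fewer cells of a type and less RNA per cell cannot be told apart. The part of these markers in the P450 values was not tested.

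The genes of xenobiotic oxidation, families 1, 2 and 3 outside the vitamin D group, are 42 of the 70 genes (60.0%) and held 16 of the 21 that rose along the line or were higher in the adult (76.2%). Along the line 8 rose (all genes 9.12%) and 0 fell (all genes 10.4%), and in the adult 12 were higher (28.6%, all genes 4.23%). Their median adult difference was 0.20, against 0.03 for all genes and 0.16 for all P450 genes. The changes were therefore large in some genes and near 0 in most, as the plot of changes by family shows. The group was drawn by family number alone, so it also holds epoxygenases of arachidonic acid such as Cyp2c55, Cyp2c23 and Cyp2j6.

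**Figure D2:**
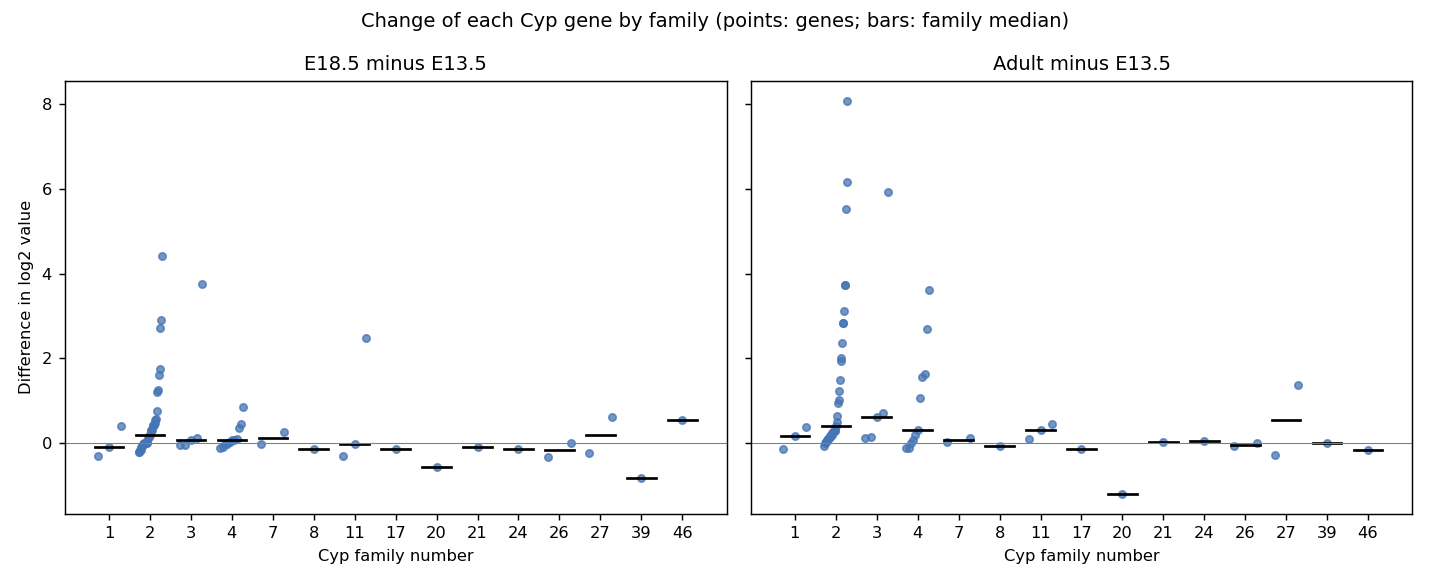
Change in log2 value of each of the 70 P450 genes, by Cyp family number on the horizontal axis, from E13.5 to E18.5 (left) and from E13.5 to the adult (right). Points are genes and bars family medians, and the largest changes, up to 8.07, lie in families 2, 3 and 4 while their medians stay between 0.32 and 0.63 in the right panel.

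Family 2 had the largest adult values, and its Cyp2c genes showed how unlike close relatives can be. Cyp2c55, an epoxygenase and hydroxylase of arachidonic acid known from the intestine, had log2 values of 4.09, 4.23, 4.39, 4.37, 4.68 and 6.99 from E13.5 to E18.5 and 12.16 in the adult. It was thus low until E17.5, had begun to move at E18.5 and was highest in the adult, where it stood 6.24 ± 0.74 (SE) above the fitted level (adjusted p = 0.0019). Measured against E18.5 itself the adult value was 36.0-fold higher. Its embryonic slope of 0.45 per day missed the threshold (adjusted p = 0.073), and the change lay mostly in the last embryonic array, without which the slope was 0.13 per day and was called. Cyp2c65 had values of 4.20, 4.18, 4.20, 4.21, 4.17 and 4.49 in the embryo and 10.35 in the adult. All 6 embryonic values lay within 0.33 of each other, and the adult stood 6.01 ± 0.14 above the fitted level (adjusted p = 4.3e-06). The only probe set of Cyp2c65 is of a kind (_s_at) that can match transcripts of several related genes, so its value may include a neighbour. Cyp2c68 followed another course, with 6.41, 6.72, 6.74, 7.71, 8.97 and 9.13 in the embryo and 9.54 in the adult. Its slope was 0.61 ± 0.08 per day (adjusted p = 0.0035), it had completed 86.9% of its log2 rise by E18.5, and its adult difference of 0.40 was not called (adjusted p = 0.58). Cyp2c23, an epoxygenase of arachidonic acid best known from the kidney, rose by 0.12 ± 0.03 per day within low levels of 4.80 to 5.49 (adjusted p = 0.045), a call lost without any 1 of the E14.5, E16.5, E17.5 or E18.5 arrays and when the arrays were centred (slope 0.11). Its only probe set is also of the _s_at kind.

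Cyp2c55, Cyp2c65 and Cyp2c68 lie in 1 cluster of 10 measured Cyp2c genes on chromosome 19, in GRCm38.p6 gene order. Only these 3 genes of the cluster were at least 2-fold above E13.5 in the adult, as were 21 of all 70 P450 genes and 9.44% of all genes. The other 7, Cyp2c29, Cyp2c37, Cyp2c38, Cyp2c39, Cyp2c50, Cyp2c54 and Cyp2c70, kept between 3.93 and 5.69 at every stage and none was called. Cyp2c29, a major P450 of the mouse liver that follows Cyp2c65 in the order of measured genes, had 5.04 at E13.5, then 5.08 at E18.5 and 5.20 in adult colon. The 150 bases before the transcription start are shown for 4 genes of this cluster, since they differ in course within 1 cluster. They are also shown for Cyp2d26, the gene with the steepest embryonic slope. Sequences are from RefSeq (GRCm38.p6), 5′ to 3′ on the strand of the gene, and capitals mark matches to the motifs named next.
Cyp2c55 (chr19:39006869-39007018, plus strand): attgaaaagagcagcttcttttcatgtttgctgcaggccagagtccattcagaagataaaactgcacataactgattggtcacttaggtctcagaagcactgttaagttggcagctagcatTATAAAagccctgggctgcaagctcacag
Cyp2c65 (chr19:39060856-39061005, plus strand): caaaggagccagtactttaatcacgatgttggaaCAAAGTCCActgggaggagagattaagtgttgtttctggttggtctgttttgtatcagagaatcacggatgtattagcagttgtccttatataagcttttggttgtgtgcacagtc
Cyp2c29 (chr19:39286935-39287084, plus strand): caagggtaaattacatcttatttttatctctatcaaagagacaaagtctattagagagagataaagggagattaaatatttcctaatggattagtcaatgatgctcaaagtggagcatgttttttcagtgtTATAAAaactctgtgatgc
Cyp2c68 (chr19:39741102-39741251, minus strand): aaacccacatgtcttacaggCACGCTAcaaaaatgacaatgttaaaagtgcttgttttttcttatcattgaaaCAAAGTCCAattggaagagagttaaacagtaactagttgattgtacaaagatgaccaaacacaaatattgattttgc
Cyp2d26 (chr15:82794246-82794395, minus strand): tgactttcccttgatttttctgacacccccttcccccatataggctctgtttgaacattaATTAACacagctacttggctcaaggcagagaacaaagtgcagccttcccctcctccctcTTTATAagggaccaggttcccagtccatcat

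A window of 300 bases around the start, 250 before it and 50 after, was given for 51 of the 70 genes and searched on both strands for 6 motifs. The TATA box letters TATAAA were present in 20 of the 51 P450 windows (39.2%) and in 13.6% of all 32851 windows. In Cyp2c55 they begin 29 bases and in Cyp2d26, on the opposite strand, 31 bases before the start. The letters CAAAGTCCA, a site of HNF4, a nuclear receptor of liver and gut epithelium, were in 6 P450 windows (11.8%) and in 0.475% of all windows. Of these 6, Cyp2c65 and Cyp2c68 were called as higher or rising, as were 16 of all 51 genes with a window, a like share. Cyp2c70, Cyp3a11, Cyp3a16 and Cyp8b1 were called in neither direction. GTTAAT (HNF1) was in 2 P450 windows, Cyp2c68 and Cyp2d26 (3.92%, all windows 7.10%), TNGCGTG (Ahr) in that of Cyp2c68 alone (1.96%, all windows 5.07%), TTTATGG (Cdx) in 2 (3.92%, all windows 2.75%) and AGTTCA (retinoic acid receptors) in 6 (11.8%, all windows 13.99%). A match of letters is not a bound site, and the relation of motifs to calls was not tested. The windows of related Cyp genes share ancestry and are not independent of each other.

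**Figure D3:**
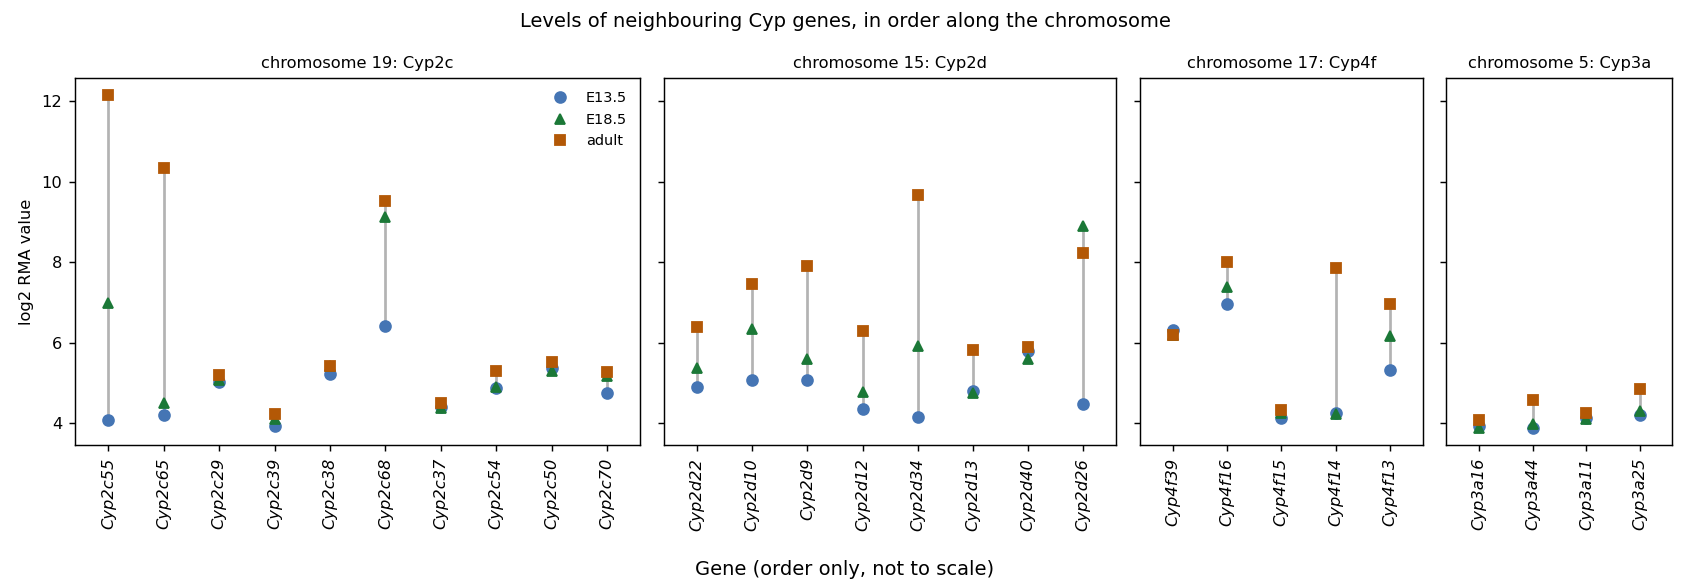
Log2 values at E13.5 (circles), E18.5 (triangles) and in the adult (squares) of clustered Cyp genes in their order along 4 chromosomes (not to scale). Only measured genes are shown, and others may lie between them. In the Cyp2c cluster 3 of 10 genes stand apart from the rest, in the Cyp2d cluster 7 of 8 are at least 2-fold above E13.5 in the adult, and the 4 clustered Cyp3a genes stay between 3.80 and 4.85.

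The Cyp2d genes, relatives of human CYP2D6, moved more widely. Of 8 clustered genes on chromosome 15, 7 were at least 2-fold above E13.5 in the adult (all genes 9.44%), 3 rose along the embryonic line (all genes 9.12%) and 6 were called higher in the adult (all genes 4.23%), with a median adult difference of 1.41. Cyp2d26 had the steepest embryonic slope of all P450 genes, with values of 4.49, 4.68, 4.81, 5.73, 7.87 and 8.89 in the embryo and 8.22 in the adult. It rose 0.93 ± 0.14 per day (adjusted p = 0.0058), and its adult value was not above that of E18.5. Without the E18.5 array the slope was 0.78 per day and was no longer called. Cyp2d34 had 4.17, 4.38, 4.29, 4.45, 4.68 and 5.92 in the embryo and 9.69 in the adult, which is 4.33 ± 0.41 above the fitted level (adjusted p = 0.00072). Most of its change therefore lay after E18.5, when 31.8% of the log2 rise had been reached, while its slope of 0.28 per day passed narrowly (adjusted p = 0.049) and lost the call when any 1 embryonic array was left out. Cyp2d9 was 2.49 ± 0.19 higher in the adult (adjusted p = 0.00032), at 7.91 after embryonic values of 4.96 to 5.61. Cyp2d10 reached 6.33 at E18.5 and 7.46 in the adult (difference 1.61 ± 0.36, adjusted p = 0.023), a call lost without the E14.5, the E16.5 or the E17.5 array. Cyp2d12, Cyp2d22 and Cyp2d13 were higher by 1.53, 1.28 and 1.06, after embryonic values of at most 4.79, 5.38 and 4.90. The values of Cyp2d13 rest on 2 probe sets that disagree, one at 4.44 to 4.84 in the embryo and 6.40 in the adult, the other at 4.70 to 5.37 and 5.26. With the second alone the difference was 0.31 and was not called. The embryonic slope of Cyp2d12, 0.08 per day (adjusted p = 0.020), was not called without the E13.5, E14.5 or E18.5 array. Cyp2d40 alone stayed flat, between 5.61 and 5.91. Members of this cluster are alike in sequence, and probes of one may take up transcripts of another.

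Family 3 had 1 gene that was called. Cyp3a13, the P450 of this family known from mouse intestine, had values of 4.79, 5.57, 5.66, 6.73, 7.85 and 8.55 in the embryo and 10.71 in the adult. Each value was higher than the one before. The slope was 0.76 ± 0.06 per day (adjusted p = 0.00088) and the adult stood a further 2.27 ± 0.30 above the line (adjusted p = 0.0031), so that 63.6% of its log2 rise was reached by E18.5. Cyp3a11, Cyp3a16, Cyp3a25 and Cyp3a44, which lie together elsewhere on chromosome 5 and are known as liver genes, kept between 3.80 and 4.85. The adult differences of Cyp3a44, 0.61 (adjusted p = 0.0070), and of Cyp3a25, 0.52 (adjusted p = 0.020), lay under the limit of 1.

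Among the other genes of family 2, Cyp2e1, which oxidizes ethanol and small solvents, was flat before birth at 4.61 to 4.87 and reached 8.43 in the adult, 3.76 ± 0.13 above the fitted level (adjusted p = 2.0e-05). Cyp2s1, known from epithelia such as skin and gut, rose along the line between E13.5 (6.48) and E18.5 (8.08) (slope 0.32 ± 0.06 per day, adjusted p = 0.014) and had 9.31 in the adult (difference 1.36 ± 0.32, adjusted p = 0.028). The adult call of Cyp2s1 was lost without any 1 of the embryonic arrays but E15.5, and its slope call without the E13.5, E17.5 or E18.5 array. Cyp2j6, an arachidonic acid epoxygenase expressed in intestine, rose from 6.15 to 7.35 before birth (0.22 ± 0.06 per day, adjusted p = 0.047) and had 7.38 in the adult. Its 2 probe sets differ after E18.5, one with 8.70 at E18.5 and 9.13 in the adult, the other with 6.01 and 5.62. Its call was lost without any 1 of the embryonic arrays but E15.5, with slopes of 0.14 without E18.5 to 0.28 without E13.5. Its other 4 measured relatives, Cyp2j5, Cyp2j9, Cyp2j11 and Cyp2j13, were not called. Cyp2f2, which activates naphthalene in airway Clara cells, had 4.07 to 4.65 before birth and 6.22 in the adult (difference 1.73 ± 0.16, adjusted p = 0.00064). By contrast the 3 genes of family 1, Cyp1a1, Cyp1a2 and Cyp1b1, which are induced through the aryl hydrocarbon receptor, stayed at 4.20 to 4.79 on all arrays. The 4 Cyp2b genes, the classical targets of the receptor CAR, stayed at 4.41 to 5.38.

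**Figure D4:**
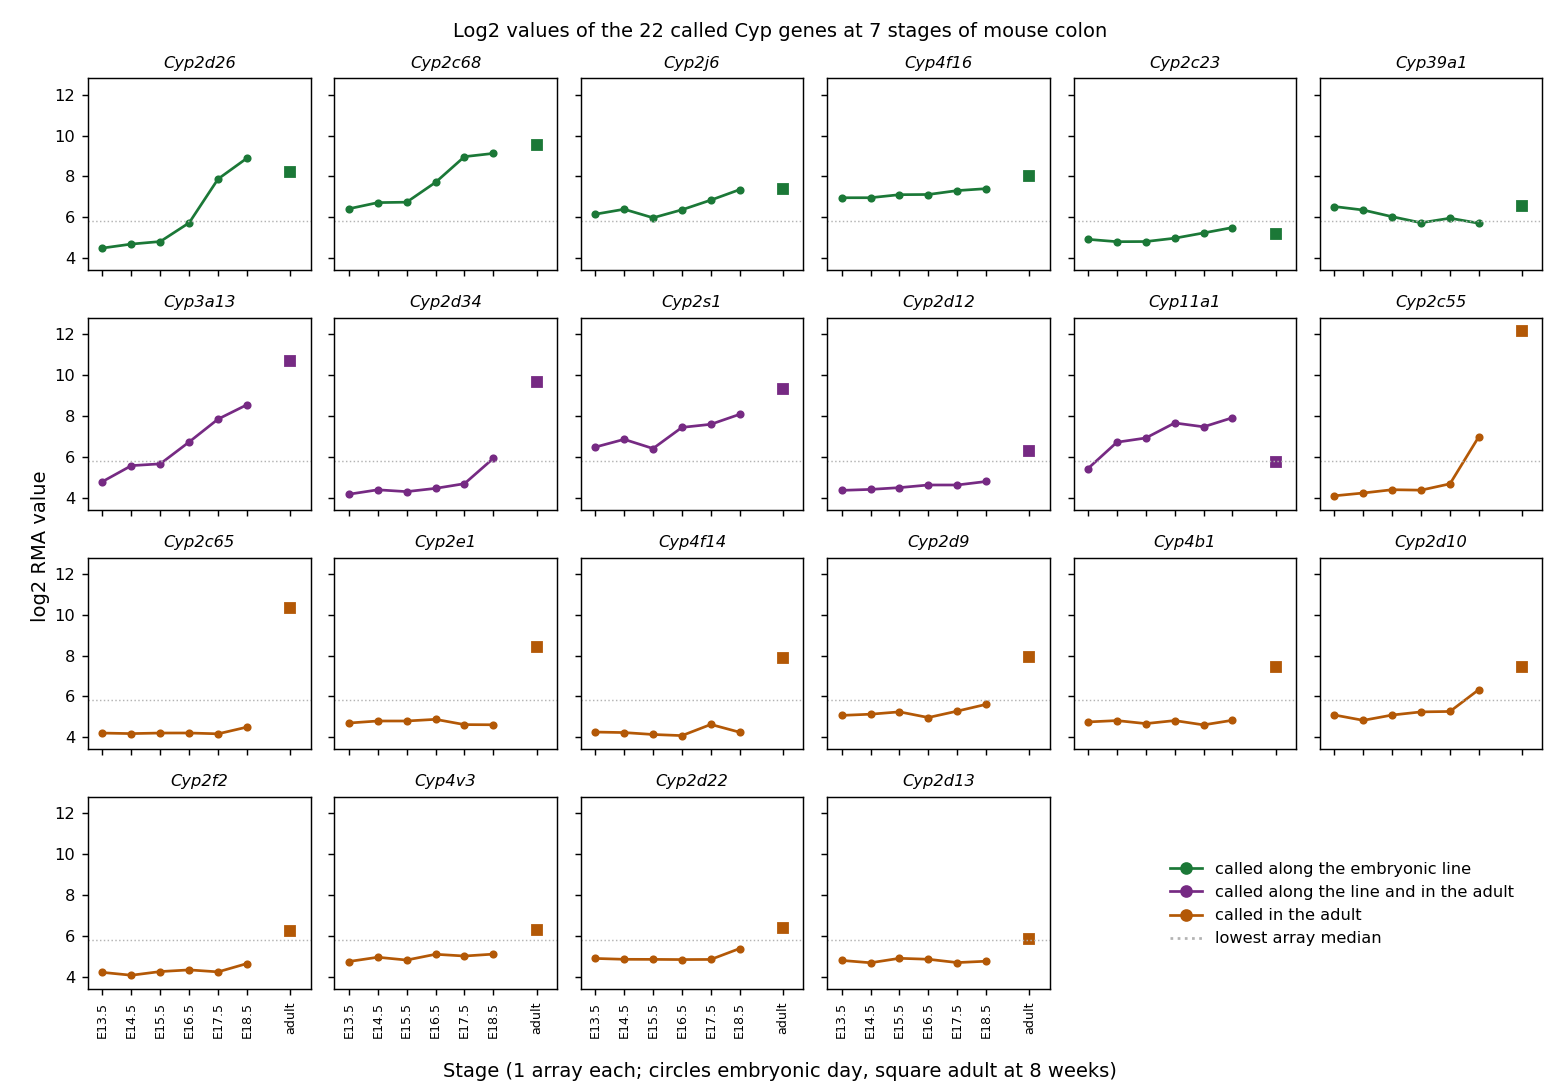
Log2 values of the 22 called P450 genes at the 7 stages (circles embryonic days, square adult), on 1 common vertical axis, coloured by the call and with the lowest array median (5.81) dotted. Cyp2d26, Cyp2c68 and Cyp3a13 climb from E15.5 or earlier, Cyp2c65, Cyp2e1, Cyp4f14 and Cyp4b1 are flat until the adult, and Cyp11a1 is highest from E16.5 to E18.5.

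Of the 11 fatty acid hydroxylases of family 4, 1 rose before birth (9.09%, close to the 9.12% of all genes) and 3 were higher in the adult (27.3%, all genes 4.23%). Cyp4f14, which inactivates leukotriene B4, had 4.25, 4.23, 4.13, 4.08, 4.62 and 4.24 in the embryo and 7.86 in the adult, 3.53 ± 0.21 above the fitted level (adjusted p = 0.00012). Cyp4b1, which hydroxylates fatty acids in lung and other tissues, was similarly flat at 4.60 to 4.83 and reached 7.45 in the adult (difference 2.71 ± 0.13, adjusted p = 5.4e-05). The embryonic and adult values of both genes are far apart, and E18.5 had reached −0.262% of the log2 rise of Cyp4f14 and 3.08% of that of Cyp4b1. Cyp4v3, the mouse counterpart of the gene mutated in Bietti crystalline dystrophy, was higher by 1.19 ± 0.13 in the adult (adjusted p = 0.0012), at 6.31, and by 0.73, not called, with its _at probe set alone. Cyp4f16 rose by 0.09 ± 0.02 per day (adjusted p = 0.017), between E13.5 (6.95) and E18.5 (7.40) and 8.02 in the adult, and 1 further probe set that names both Cyp4f16 and Cyp4f37 and was left out had 4.71, 5.11 and 6.25 at these stages. The slope call of Cyp4f16 was lost without the E13.5, E14.5, E17.5 or E18.5 array, and with the brighter of its probe sets alone, where the adult difference of 1.10 was called instead. Of the 5 Cyp4f genes that lie together on chromosome 17, 3 were at least 2-fold above E13.5 in the adult (all genes 9.44%), namely Cyp4f13, Cyp4f14 and Cyp4f16. The adult difference of Cyp4f13 was 1.07 but was not called (adjusted p = 0.079).

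The P450 genes thus fell into different times of change. Values at least 2-fold above the preceding stage were found for Cyp11a1 alone at E14.5 (background 0.324% of all genes), for Cyp2s1 and Cyp3a13 at E16.5 (background 1.01%) and for Cyp2c68, Cyp2d26 and Cyp3a13 at E17.5 (background 0.649%). At E18.5 they were found for Cyp2c55, Cyp2d10, Cyp2d26 and Cyp2d34 (background 0.368%) and in the adult for 15 genes (background 4.33%), which are the 15 genes called higher in the adult. Only Cyp11a1 was at least 2-fold lower in the adult than at E18.5 (background 3.84%). These steps compare single arrays and carry no test. Among the 15 genes higher in the adult, the part of the log2 rise reached by E18.5 ran from −3.95% for Cyp2d13 to 63.6% for Cyp3a13. A value below 0 means that E18.5 lay below E13.5. The rule for the adult call itself favours genes with little rise by E18.5, and all genes were not compared on this measure.

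**Figure D5:**
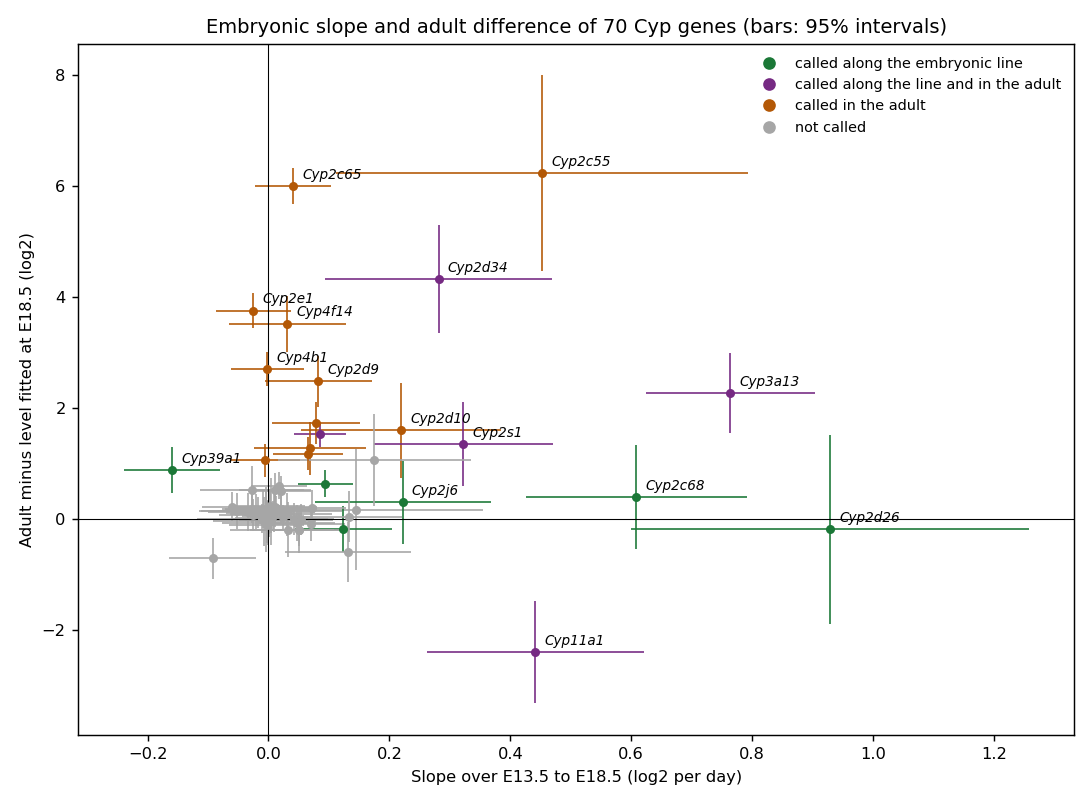
Slope over the embryonic days (log2 per day) against the adult value minus the fitted E18.5 level (log2) for the 70 P450 genes, with 95% intervals as bars and colours by call. Cyp2d26 and Cyp2c68 lie far to the right near a difference of 0, Cyp2c65, Cyp2e1 and Cyp4f14 high near a slope of 0, and Cyp11a1 alone lies at the lower right.

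Among the genes of endogenous substrates, Cyp11a1 and Cyp39a1 were called. Cyp11a1, which converts cholesterol to pregnenolone in the first step of steroid hormone synthesis, had 5.42, 6.71, 6.92, 7.66, 7.47 and 7.91 in the embryo and 5.73 in the adult. It was the single P450 gene called in opposite directions, rising 0.44 ± 0.08 per day (adjusted p = 0.0091) and lower in the adult, with a difference of −2.39 ± 0.39 (adjusted p = 0.0069). Its 3 probe sets disagree in course. One went between E13.5 (5.42) and E18.5 (8.14) and 5.73 in the adult, a second peaked at E15.5 with 8.55 and had 7.91 at E18.5 and 6.84 in the adult, and the third stayed between 4.75 and 5.10. With its brightest probe set alone, neither call held (slope 0.16, adult difference −1.52). The other measured steroid genes, Cyp11b1, Cyp11b2, Cyp17a1 and Cyp21a1, were not called, and Cyp19a1 was not among the genes measured. Nor were the 4 measured markers of steroidogenic cells called, Star, Nr5a1, Hsd3b1 and Mc2r.

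Among 6 genes of bile acid and oxysterol metabolism Cyp39a1, an oxysterol hydroxylase, was the only P450 gene to fall along the line, between E13.5 (6.52) and E18.5 (5.71) (slope −0.16 ± 0.03, adjusted p = 0.019). Its adult value of 6.54 was back at that of E13.5, with a difference of 0.89 ± 0.17 (adjusted p = 0.014) that lay under the limit of 1. The fall was not called without the E13.5, the E14.5 or the E18.5 array (slopes −0.18 to −0.14). Cyp7a1, the rate-limiting enzyme of bile acid synthesis, Cyp7b1 and Cyp8b1 stayed between 4.52 and 5.18. Of the 3 probe sets of Cyp7b1 one, of the _s_at kind, lay higher, at 6.41 to 6.77 in the embryo and 5.98 in the adult. Cyp46a1, the cholesterol 24-hydroxylase of brain, had 5.50 to 6.26 and was not called. Cyp27a1, the mitochondrial sterol hydroxylase, was not called either, but its 2 probe sets differ. One had 6.07 at E13.5, then 6.64 at E18.5 and 8.47 in adult colon, the other 5.41, 6.07 and 5.77 with a peak of 7.66 at E17.5. With the first alone the adult difference was 1.74 and was called. Without the E18.5 array the slope of 0.32 per day was called and the adult difference, 0.18 over both probe sets, became −0.47, called in neither case.

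The 3 vitamin D genes, the 25-hydroxylase Cyp2r1, the activating Cyp27b1 and the inactivating Cyp24a1, were not called, and lay between 4.74 and 5.39. The adult difference of Cyp2r1 was 0.53 (adjusted p = 0.032), under the limit of 1. Neither of the measured retinoic acid hydroxylases was called, Cyp26a1 at 4.46 to 4.86 and Cyp26b1 at 5.98 to 6.45. Cyp26c1 was not among the genes measured. Cyp20a1, an enzyme with no settled substrate, had 7.68 at E13.5, then 7.12 at E18.5 and 6.49 in adult colon, with an adult difference of −0.70 (adjusted p = 0.023) and a Spearman correlation of −0.94 with stage, and was not called. It was the single P450 gene at least 2-fold below its E13.5 value in the adult (all genes 8.65%). The 3 probe sets of Cyp20a1 lie at different levels. The brightest had 10.76 at E13.5 and 9.73 in the adult, the dimmest 5.22 and 4.85.

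The partners of P450 enzymes were read from lists. Of 10 measured genes of electron transfer and heme supply, 0 rose along the line (all genes 9.12%), 1 fell (all genes 10.4%, a like share) and 1 was higher in the adult (all genes 4.23%), with a median adult difference of 0.41. The gene higher in the adult was Alas1, the first enzyme of heme synthesis, with 7.44 at E13.5, then 7.76 at E18.5 and 10.17 in adult colon (difference 2.51, adjusted p = 0.00060). Pgrmc1, a heme protein that binds P450 enzymes, fell by 0.10 per day (adjusted p = 0.025). Fdx1, the electron donor of mitochondrial P450 enzymes, had an adult difference of 1.19 that was not called (adjusted p = 0.054). Por, the reductase that serves the microsomal enzymes, was not measured by a probe set of its own.

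Of 21 transcription factors known to act on P450 genes, 7 rose before birth (33.3%, all genes 9.12%), 0 fell (all genes 10.4%) and 3 were higher in the adult (14.3%, all genes 4.23%). Pparg, a receptor for fatty acids, had 6.15 at E13.5, then 8.33 at E18.5 and 10.04 in adult colon (slope 0.43, adjusted p = 0.00081). Nr1h4, the bile acid receptor, rose by 0.52 per day (adjusted p = 0.0019) and Cebpa by 0.48 (adjusted p = 0.0097). The HNF4 genes Hnf4a and Hnf4g rose by 0.28 (adjusted p = 0.00077) and 0.29 per day (adjusted p = 0.0032). Vdr, the vitamin D receptor, was higher in the adult by 3.55 (adjusted p = 7.0e-05), at 9.24 after 5.02 at E13.5. The receptors and targets given next were picked after their values were seen. The gene values of these targets, the family 1 genes and Cyp24a1, lay below the lowest array median at every stage. The relation of regulators to P450 genes was not tested. Ahr rose between E13.5 (5.80) and E18.5 (6.84) (slope 0.22, adjusted p = 0.0022), and the family 1 genes that it induces had 4.20 to 4.79. The Vdr target Cyp24a1 had 4.82 at E18.5 and 5.01 in the adult. One probe set of Cyp24a1 had 4.18 at both stages, the other 5.46 and 5.83. The receptors PXR (Nr1i2) and CAR (Nr1i3) were not called, at 6.01 and 4.95 in the adult. The adult difference of Nr1i2, 0.78 (adjusted p = 0.0022), lay under the limit of 1, and that of Nr1i3 was −0.01 (adjusted p = 0.98).

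Other enzymes of phase I metabolism were mostly higher in the adult. Of 22 genes measured, 4 rose before birth (18.2%, all genes 9.12%) and 15 were higher in the adult (68.2%, all genes 4.23%), with a median adult difference of 2.19, against 0.16 for the P450 genes and 0.03 for all genes. The carboxylesterase Ces1f had 4.20 at E13.5, then 4.18 at E18.5 and 9.56 in adult colon (difference 5.45, adjusted p = 4.3e-06), and Ces2a was higher by 4.76 (adjusted p = 3.7e-05). The alcohol dehydrogenase Adh1 rose by 0.64 per day before birth (adjusted p = 0.00088), from 6.16 to 9.32, and had 11.89 in the adult. Of 11 genes of retinoic acid synthesis and response, 1 rose before birth (9.09%, all genes 9.12%), 3 fell (27.3%, all genes 10.4%) and 0 were called in the adult, where 4.23% of all genes were higher and 3.26% lower. Among P450 enzymes that the symbol rule leaves out, Cyp51 of cholesterol synthesis, Tbxas1, Ptgis and Cyp4a12a, 0 of 4 were called.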

How the data were processed

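Per the labels and the study's methods, colon RNA of C57BL/6 mice was hybridized to Affymetrix Mouse Genome 430 2.0 arrays, and the authors deposited RMA values on the log2 scale, made with affy 1.22.1 in R 2.9.2 as the submitters' processing notes list them. RMA makes the distributions of arrays alike, which hides any change common to most genes. Of the 93 P450 probe sets 51 (54.8%) had an identical value on at least 2 arrays, against 46.1% of all probe sets. Of 45101 probe sets, 34958 name 1 gene in the annotation of the platform, 932 several and 9211 none, and the last groups were left out. Identifiers were matched to a mouse gene table of GRCm38.p6 (18033 of 18195, and all 70 P450 genes), and the median was taken over the probe sets of a gene, of which 52 P450 genes have 1, 13 have 2 and 5 have 3. Another 9 probe sets name P450 genes outside the symbol rule or several genes.

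limma 3.58.1 in R 4.3.3 (lmFit, eBayes) fitted all 18194 genes, with Benjamini-Hochberg adjustment over them, and the fit was tested on simulated data. No filter on dim genes was applied. Genes were named if they were called or belong to the bile acid, steroid, vitamin D or retinoic acid groups, and, from partner lists, by the largest calls. Other genes named were chosen after their values were seen. The P450 genes, the lists, the motifs and the printed promoters were chosen with earlier results of these data known. Gene clusters are runs of measured P450 genes at most 500 kb apart. Alternatives were the brightest probe set by mean, only probe sets that do not end in _x_at or _s_at, leaving out the dimmest 25% of genes, centring the arrays, eBayes with trend and robust settings, late minus early arrays in place of the line, E17.5 and E18.5 averaged as adult reference, the embryonic arrays alone, the standard deviation as spread, and leaving out each embryonic array. Tables and plots were made with pandas 2.3.3, numpy 2.4.6, scipy 1.17.1 and matplotlib 3.10.9 in Python 3.11.15. Precision is limited by the small number of arrays.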

Additional observations from a re-analysis of the deposited data

How the results depend on the processing

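No called value of the 36 named P450 genes changed sign. The 15 genes higher in the adult became 16 with the brightest probe set of each gene and 10 without the dimmest 25% of genes, a filter that takes out 39 of the 70 P450 genes and 5 of the 15 (Cyp2c65, Cyp2d12, Cyp2d13, Cyp2f2 and Cyp4f14). They numbered 13 to 16 when each embryonic array was left out in turn. Adult calls of Cyp2c55, Cyp2c65, Cyp2d9, Cyp2d12, Cyp2d22, Cyp2d34, Cyp2e1, Cyp2f2, Cyp3a13, Cyp4b1 and Cyp4f14 held under every alternative in which the gene was measured. The single gene lower in the adult, Cyp11a1, gave 0 with the brightest probe set.

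The embryonic line was less firm. With late minus early arrays in place of the line, the 10 rising genes became 3, namely Cyp2c68, Cyp2s1 and Cyp3a13. All genes called then fell from 1660 to 645. With an array left out the rising genes numbered 5 to 10, the fewest without E13.5, E17.5 or E18.5. The slopes of Cyp2c68 and Cyp3a13 kept their calls under every alternative. The 1 falling gene became 0 with late minus early arrays, 2 with centred arrays and 0 to 2 with an array left out. The 3 development-related genes became 6 with the standard deviation as spread and 3 to 7 with an array left out. Of 828 recomputed slopes and adult differences of 36 named genes, 52 lost a call and 7 gained one, and 41 changed sign while called neither at first nor under the alternative, among them the adult difference of Cyp27a1. No paired analysis was possible because each stage has 1 array. With 1 array per stage, a difference between single embryos or animals cannot be told apart from a change with stage.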
